A study of Aspergillus luchuensis with 6 samples.

Results

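The transcripts described here are the isolated falling tags of a koji mould mutant: 87 of 11488 locus tags whose level in the mutant U1 was at most 0.5 of that in wild type, with no other such tag close by in the numbering. Members were chosen by measured values. Counts were divided by the library total and multiplied by 1000000, which gives CPM, and averaged per strain. A tag was called falling when its wild-type mean was at least 10 CPM, its U1 mean was at most 0.5 of the wild-type mean and every U1 library lay below every wild-type library, leaving out the stretch from AKAW_05980 to AKAW_06045. Of 155 falling tags, 87 (56.1%) had no other falling tag within 2 tag numbers on either side and are the members, and the other 68 are called clustered. All differences between the strains at the members are therefore descriptions of what was chosen. Calls from a test over all tags are given for the members, but nothing is read from those calls.

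RNA was sequenced from rice koji, steamed rice overgrown by *Aspergillus luchuensis*. U1 is a mutant from ion beam mutagenesis labelled as high in starch degradation, with 3 libraries, and wild type is the strain RIB2601 in which U1 has its background, with 3 libraries. Both strains were sampled as whole cells, and U1 is a single mutant strain. Whether the replicate libraries trace to different koji cultures is not stated, so the spread between them may be technical.

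Koji moulds live on cooked grain by secreting amylases, proteases and other hydrolases, and take up the sugars and peptides released. In filamentous fungi, genes for one secondary metabolite or one nutrient often sit side by side and are switched together, whereas many genes of growth, secretion and basic metabolism stand alone among neighbours of other function. Locus tags of a genome assembly are usually numbered in order along its sequence. Neighbouring numbers are treated as neighbours here on that ground alone.

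The deposited counts carry tags without gene names, and 0 of the 11488 tags occur in the reference table of 12941 genes of the species. No role can be given to a member, so members are identified by their rank, and only those at the head of each ranking by their tag. Hyphal and spore markers could not be looked up for the same reason. Gene lengths are not paired with the tags either, so CPM orders tags by their reads and not by transcript number. In RNA from whole koji, fewer cells of a kind and less RNA per cell cannot be told apart.

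Library totals were 4427719 to 8420828 counts in U1 and 4025119 to 5064126 in wild type. A level of 3 counts corresponded to 0.356 to 0.678 CPM in a U1 library and 0.592 to 0.745 CPM in a wild-type library. Of 8790 tags tested across the whole table, 1151 (13.1%) were called lower and 1002 (11.4%) higher in U1 by edgeR's quasi-likelihood test at a Benjamini-Hochberg adjusted p under 0.05. With library totals in place of trimmed-mean (TMM) factors, 899 were lower and 1385 higher. All 87 members were tested and called lower, beside that 13.1%, but they were selected on the same contrast. Separation of all U1 libraries below all wild-type libraries was found for 1057 of the 7115 tags at 10 CPM or more in wild type (14.9%), and for every member by rule.

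The members were spread over a wide range of levels and were mostly lowered moderately. Their U1 means spanned 0.526 to 3064 CPM, median 16.7 CPM, against 10.1 to 6245 CPM, median 44.7 CPM, in wild type. The ratio of the U1 mean to the wild-type mean lay between 0.0432 and 0.496, its median being 0.417 and its quartiles 0.327 and 0.456. On the log2 scale the median ratio was -1.26, beside 0.07 over all 7115 tags at 10 CPM or more in wild type. Just 10 members were at or below 0.25 of wild type, while 22 lay between 0.4 and 0.45 and 26 between 0.45 and 0.5. Both strains' summed reads stood well above the counting floor for most members, with a median of 308 reads over the U1 libraries and 597 over the wild-type libraries.

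**Figure D1:**
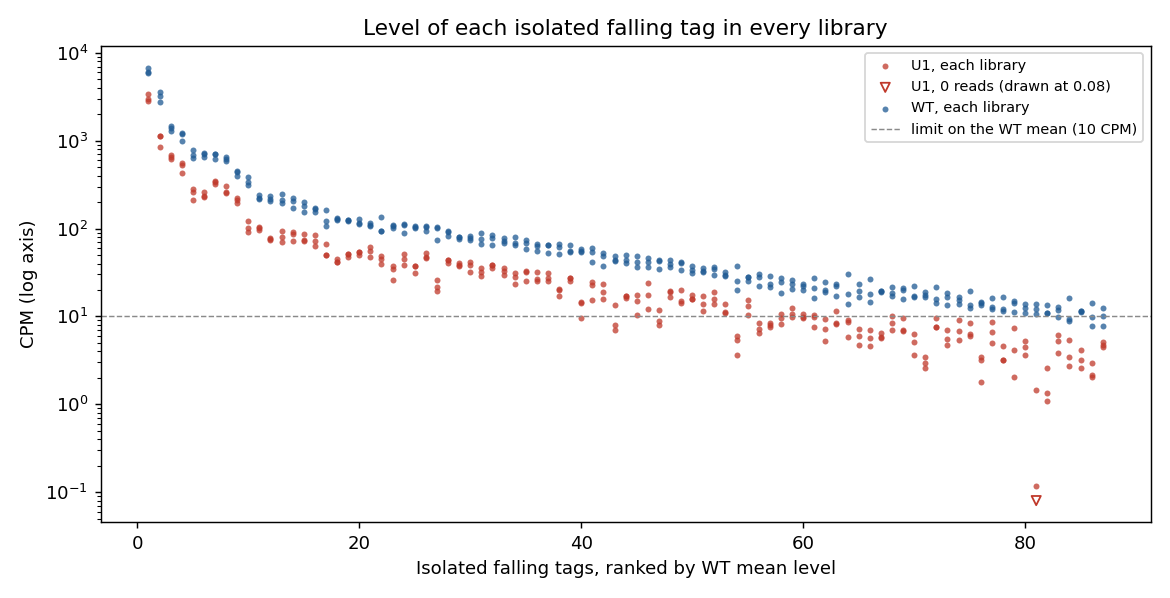
Level in CPM (log axis) of the 87 isolated falling tags, ordered by wild-type mean, with 1 point per library in U1 (red) and wild type (blue). The U1 points lie below the wild-type points for every tag, as the rule requires, and the open triangle marks the single value of 0 reads.

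AKAW_03242 had the lowest ratio. It had 1, 8 and 0 reads in the U1 replicates 1 to 3, against 70, 52 and 43 reads in the wild-type replicates 1 to 3. These counts are 0.119, 1.46 and 0 CPM in U1 and 13.8, 12.03 and 10.7 CPM in wild type. The U1 libraries differed among themselves, since 8 of the 9 reads came from replicate 2, and 2 of the 3 U1 libraries were under the level of 3 counts. Its means were 0.526 ± 0.810 CPM in U1 and 12.2 ± 1.58 CPM in wild type (SD, n = 3 each), a ratio of 0.0432. It stood apart from the other members in ratio, as the next lowest ratio was 0.142.

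No tag within 2 numbers of AKAW_03242 was called, but the 2 after it were too weakly read to be tested. The tag just after it was nearly unread, at 0.119, 0 and 0.226 CPM in U1 and 0.197, 0.231 and 0 CPM in wild type, and the one after that had no read in any library. The tag just before it had 16.6, 19.0 and 13.1 CPM in U1, against 19.7, 21.5 and 15.9 CPM in wild type, and was not called. At 2 numbers before it, a tag had 1.19, 0.912 and 2.71 CPM in U1, against 2.57, 3.24 and 2.73 CPM in wild type. Its ratio was 0.563 and it was not called (edgeR adjusted p = 0.0796). At 3 numbers before it, a tag with 28.4, 22.4 and 28.0 CPM in U1, against 65.4, 31.9 and 38.5 CPM in wild type, was called lower (edgeR adjusted p = 0.0486), with wild-type replicate 1 far above the other two. The nearest other falling tag was 122 numbers away.

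The members with the next lowest ratios were also weakly read. The second lowest had 22, 6 and 6 reads in the U1 replicates, against 56, 59 and 44 in the wild-type replicates, or 1.69 ± 0.812 CPM against 11.9 ± 1.53 CPM (SD, n = 3 each). The third had 2.61, 3.47 and 2.94 CPM in U1, against 16.6, 19.2 and 17.6 CPM in wild type, a ratio of 0.169. Replicates of the third lay close together in both strains. The fourth had 5.34, 6.02 and 3.61 CPM in U1, against 37.1, 19.9 and 25.1 CPM in wild type, where replicate 1 was clearly the highest. The fifth, at a ratio of 0.201, had 3.21, 3.47 and 1.81 CPM in U1, against 14.2, 13.6 and 14.4 CPM in wild type.

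Ranks 6 to 10 included better-read transcripts. The sixth had 7.01, 8.03 and 13.3 CPM in U1, with replicate 3 the highest, against 48.6, 44.4 and 43.0 CPM in wild type. The eighth had 14.1, 14.8 and 9.49 CPM in U1, against 59.2, 55.0 and 53.9 CPM in wild type, a ratio of 0.228. Of the 10 strongest, the tenth had the most reads, with 21.7, 19.7 and 25.7 CPM in U1, against 102.5, 105.2 and 74.0 CPM in wild type, and its wild-type replicate 3 lay well below the others. The seventh and ninth had ratios of 0.222 and 0.237. None of the 10 exceeded 105.2 CPM in any wild-type library.

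AKAW_02430 was the member with the most reads. It had 3392, 2977 and 2822 CPM in the U1 replicates 1 to 3, against 6066, 6804 and 5866 CPM in the wild-type replicates 1 to 3. Its means were 3064 ± 295 CPM in U1 and 6245 ± 494 CPM in wild type (SD, n = 3 each), a ratio of 0.491 that lies close to the limit. Among all tags it ranked 13th in U1 and 6th in wild type by mean CPM. It supplied 33.4% to 37.9% of the members' reads in each U1 library and 29.4% to 32.8% in each wild-type library.

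The neighbours of AKAW_02430 were read far less. The tag just after it had 215.9, 215.4 and 202.4 CPM in U1, against 240.9, 297.6 and 283.7 CPM in wild type, a ratio of 0.771 (edgeR adjusted p = 0.000502, lower in 3 of 3 U1 libraries). The tag just before it had 6.77, 5.11 and 5.65 CPM in U1, against 7.50, 8.09 and 8.20 CPM in wild type, and was not called (edgeR adjusted p = 0.11). Reads shared between overlapping neighbours cannot be separated in these counts, as nothing used here states how strand was treated. The nearest other falling tag was 140 numbers away.

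The other highly read members differed in how far they were lowered. The second by wild-type level had 1141, 840.2 and 1136 CPM in U1, against 3602, 3256 and 2781 CPM in wild type, a ratio of 0.323. Its U1 replicate 2 was the lowest U1 library and its wild-type replicate 3 the lowest wild-type library. The third had 685.2, 626.7 and 644.8 CPM in U1, against 1490, 1397 and 1284 CPM in wild type, a ratio of 0.469. The fourth had 528.7, 426.1 and 558.3 CPM in U1, against 1222, 1206 and 1001 CPM in wild type. The fifth and sixth had ratios of 0.360 and 0.352. The fifth had 211.7, 262.3 and 283.7 CPM in U1, against 781.2, 636.6 and 689.7 CPM in wild type. The sixth had 260.2, 237.9 and 231.7 CPM in U1, against 716.8, 698.8 and 657.9 CPM in wild type. Ranks 7 to 10 had ratios of 0.496, 0.440, 0.489 and 0.306, and the tenth averaged 105.2 ± 15.6 CPM in U1, against 343.4 ± 35.8 CPM in wild type (SD, n = 3 each).

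Strong lowering was seen among weakly read members. The 23 members at 10 to 20 CPM in wild type had a median ratio of 0.334, and the 23 at 20 to 50 CPM one of 0.417. The 15 members at 50 to 100 CPM had a median of 0.451, the 18 at 100 to 500 CPM one of 0.421, and the 8 above 500 CPM one of 0.441. No member at 100 CPM or more in wild type had a ratio under 0.306. Members made up 2.27% of all 1011 tags at 10 to 20 CPM, 0.852% of the 1760 tags at 50 to 100 CPM and 2.36% of the 339 tags at 500 CPM or more in wild type. Sampling of few reads widens the ratios of weakly read tags, and its part in this pattern was not tested.

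**Figure D2:**
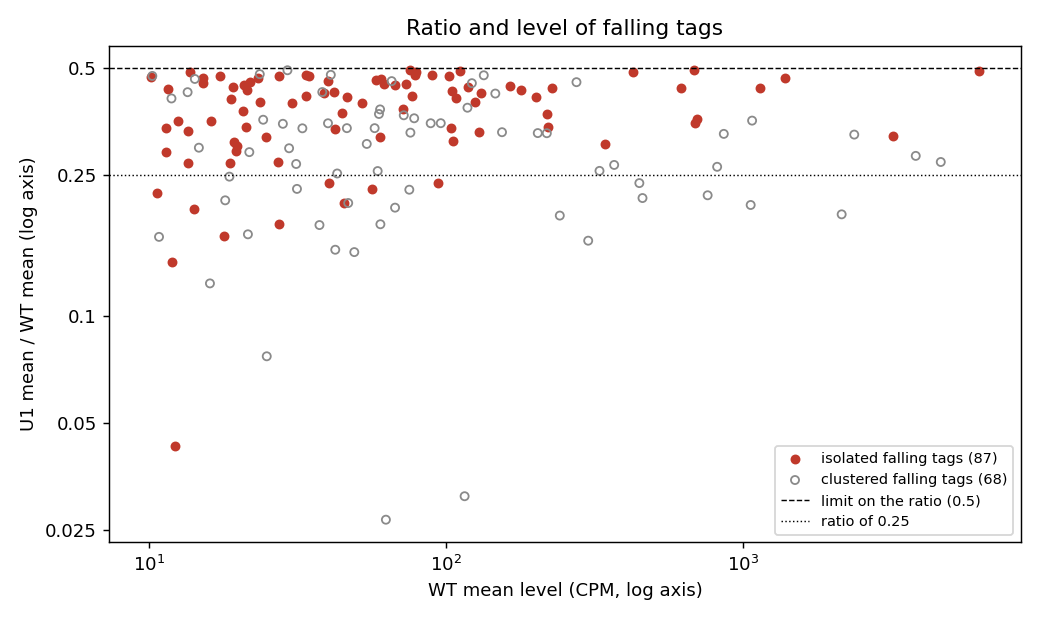
Ratio of U1 mean to wild-type mean (log axis) against wild-type mean CPM (log axis) for the 87 isolated (filled) and 68 clustered (open) falling tags, with lines at ratios of 0.5 and 0.25. The 10 isolated tags at or below 0.25 all lie under 100 CPM, whereas clustered tags at or below 0.25 occur up to over 2000 CPM.

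The clustered falling tags, chosen on the same values, were lowered further. Their median ratio was 0.303 on 68 tags, beside 0.417 for the isolated tags, and 23 of them (33.8%) were at or below 0.25, beside 10 isolated tags (11.5%). Median levels in U1 were 16.7 CPM for isolated and 16.8 CPM for clustered tags, and in wild type they were 44.7 CPM for isolated and 59.9 CPM for clustered tags. Both sets were defined from this contrast, so the difference between them was not tested.

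Together the members took 0.846% ± 0.047 of all counts in U1 and 1.99% ± 0.129 in wild type (SD, n = 3 each). The shares were 0.894%, 0.801% and 0.844% in the U1 replicates 1 to 3, and 2.06%, 2.07% and 1.84% in the wild-type replicates 1 to 3. Wild-type replicate 3 was thus the lowest of its strain, and U1 replicate 2 the lowest of the mutant. Without AKAW_02430 the shares were 0.540% ± 0.032 in U1 and 1.37% ± 0.101 in wild type (SD, n = 3 each).

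The low position of wild-type replicate 3 was general among the members. It held the lowest wild-type value of 54 of the 87 members (62.1%), against 33.3% of all tags at 10 CPM or more in wild type. The median member stood at 0.926 of its wild-type mean in replicate 3, against 1.04 in replicate 1 and 1.02 in replicate 2. Over all tags at 10 CPM or more the medians of replicates 1 and 2 were 0.996 and 0.997, and replicate 3 had the highest. The scaling of the libraries moved this little: with TMM-scaled library sizes replicate 3 was lowest for 55 members. The feature was shared with other lowered tags, since replicate 3 was lowest for 64.7% of the clustered tags and for 47.0% of the 874 other tags called lower at 10 CPM or more. The U1 replicates 1, 2 and 3 held the lowest U1 value of 24, 29 and 34 members (27.6%, 33.3% and 39.1%). Over all tags at 10 CPM or more these shares were 44.4%, 28.0% and 27.6%. On library totals, U1 replicate 1 was thus lowest less often among the members than among all such tags, and U1 replicate 3 more often. With TMM-scaled library sizes the U1 replicates 1, 2 and 3 were lowest for 18, 36 and 33 members. Replicate 2 was then most often the lowest, and no share over all tags was taken on that scale. With wild-type replicate 3 left out, the rule gave 100 isolated tags, 82 of them among the 87. The labels give no batch, date or time for the libraries.

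**Figure D3:**
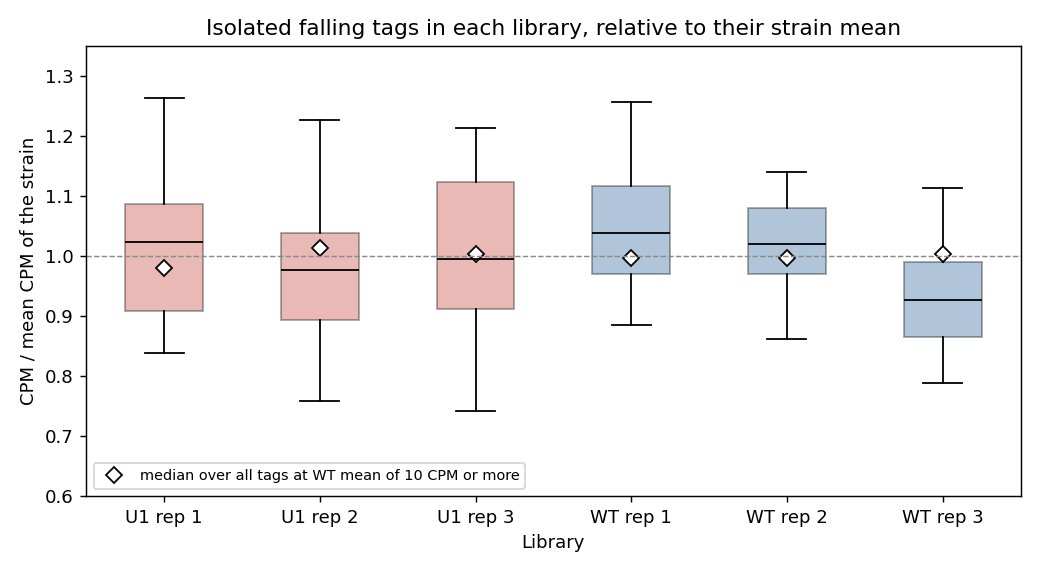
Members' CPM in each library divided by their mean in that strain, as boxes (quartiles, median line, whiskers at the 5th and 95th percentile) over 87 tags. Diamonds give the median over all tags at 10 CPM or more in wild type, and the box of wild-type replicate 3 lies below its diamond, with a median of 0.926.

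Replicates of the members were less tight than those of expressed tags in general. The coefficient of variation (SD over mean of 3 libraries) had a median of 14.4% in U1 and 11.4% in wild type over the members, against 7.94% in U1 and 6.78% in wild type over all tags at 10 CPM or more. The clustered tags had medians of 13.3% in U1 and 9.71% in wild type. The highest value among members, 154% in U1, belonged to AKAW_03242, and 5 members had fewer than 10 reads in some U1 library. Counting error is larger at low counts, and its part in these values was not tested. The lowest wild-type library still exceeded the highest U1 library by 1.42 to 7.32 times, with a median of 1.88 times.

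The ratio of U1 to wild type was also read with the choice made anew on part of the libraries. The 87 members themselves were chosen on all 6 libraries. Whether the libraries left out come from other cultures than the rest is not stated, so the reading may repeat technical spread only. The rule was applied to 2 U1 and 2 wild-type libraries, leaving out 1 of each, and the chosen tags were read in the 2 libraries left out, for all 9 combinations. Between 81 and 105 tags were chosen, of which 71 to 80 were among the 87 members. In the libraries left out, every chosen tag was lower in U1 than in wild type for 8 of the 9 combinations, and 86 of 87 were for the remaining one, against 35.7% to 47.3% of all tags at 10 CPM or more. A U1 value of at most 0.5 of wild type was found for 46.7% to 83.5% of the chosen tags, against 2.16% to 2.84% of all tags at 10 CPM or more. The median ratio in the libraries left out ran from 0.388 to 0.513.

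Which wild-type library was left out made a visible difference. When wild-type replicate 3 was the one read, 55.2%, 64.4% and 46.7% of the chosen tags were at or below 0.5, with U1 replicates 1, 2 and 3. When wild-type replicate 1 or 2 was read, the share was 68.7% to 83.5%. The 9 combinations share libraries, so they are not independent of each other.

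**Figure D4:**
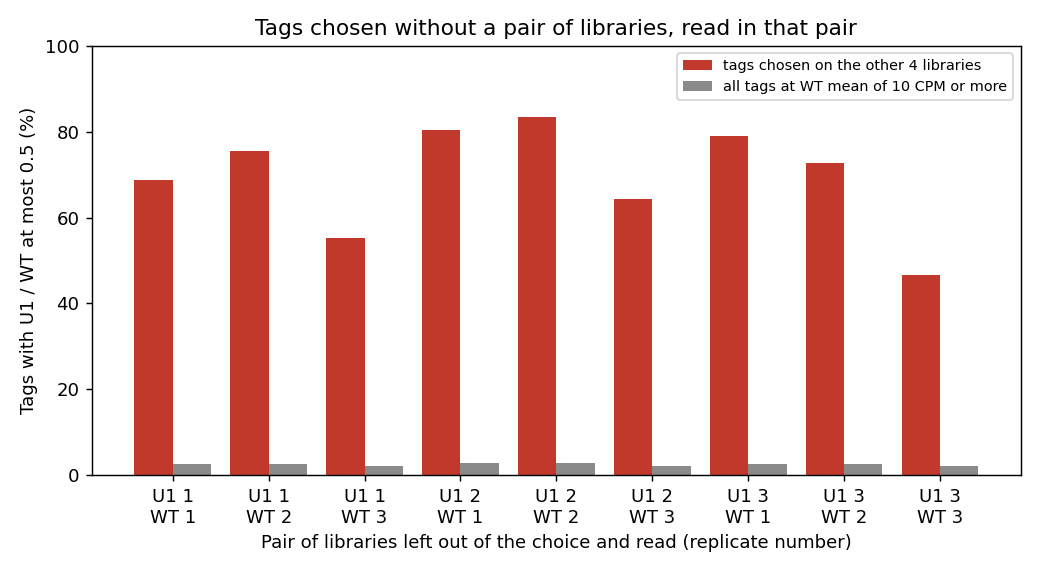
Percent of tags with U1 at most 0.5 of wild type in a pair of libraries left out of the choice, for the tags chosen on the other 4 libraries (red) and for all tags at 10 CPM or more in wild type (grey). The red bars run from 46.7% to 83.5% and are lowest where wild-type replicate 3 was read, and the grey bars stay between 2.16% and 2.84%.

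Tags lay close together on either side of the limits. The 3 members nearest to the ratio limit had ratios of 0.496, 0.495 and 0.492, and the 3 nearest tags beyond it, otherwise meeting the rule, had 0.501, 0.502 and 0.503. The member closest inside was the seventh most read, with 345.7, 325.4 and 342.6 CPM in U1, against 714.0, 709.5 and 620.9 CPM in wild type. The tag closest outside had 23.2, 28.1 and 26.7 CPM in U1, against 55.3, 55.0 and 45.2 CPM in wild type. At the level limit, members had wild-type means of 10.1, 10.6 and 11.3 CPM, and the nearest tags excluded had 9.95, 9.81 and 9.58 CPM. In 4 members at least 1 wild-type library was itself under 10 CPM. No tag met the limits on level and ratio and failed only on overlap between the strains' libraries.

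Isolation by the rule did not mean that the neighbours were steady. Of the 174 tags 1 number away from a member, 129 were tested, and 43 of these (33.3%) were called lower in U1, against 13.1% of all tested tags. The 95% exact binomial interval of that share was 25.3% to 42.2%, which covers counting error only and treats neighbouring tags as independent. Another 11 (8.53%) were called higher, against 11.4% of all tested tags. The 43 tags were lowered less than the members, with a median ratio of 0.575 and a range of 0.205 to 0.844. Of the 43, 7 were at or below 0.5 of wild type, and all 7 averaged less than 10 CPM in wild type, so the limit on level kept them from counting as falling tags. The excess was found on both sides, with 17 of 62 tested tags before a member and 26 of 67 after it called lower.

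Of the distances of 1 to 10 numbers examined, only 1 number had an interval that lay wholly above the share of all tested tags. At 2 numbers away 15.9% of 113 tested tags were called lower, with an interval of 9.72% to 24.0%. The rule allows no falling tag at 1 or 2 numbers, and every falling tag was called lower. The shares at these distances therefore lack tags that the share of all tested tags includes. At 3 to 5 numbers away, where the rule sets no limit, 51 of 363 tested tags (14.0%) were called lower and 51 higher, against 13.1% and 11.4% of all tested tags. The interval for the lower ones was 10.6% to 18.1%. Whether reads of overlapping genes contribute to the share at 1 number was not tested, because positions and strands of the tags are not given.

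**Figure D5:**
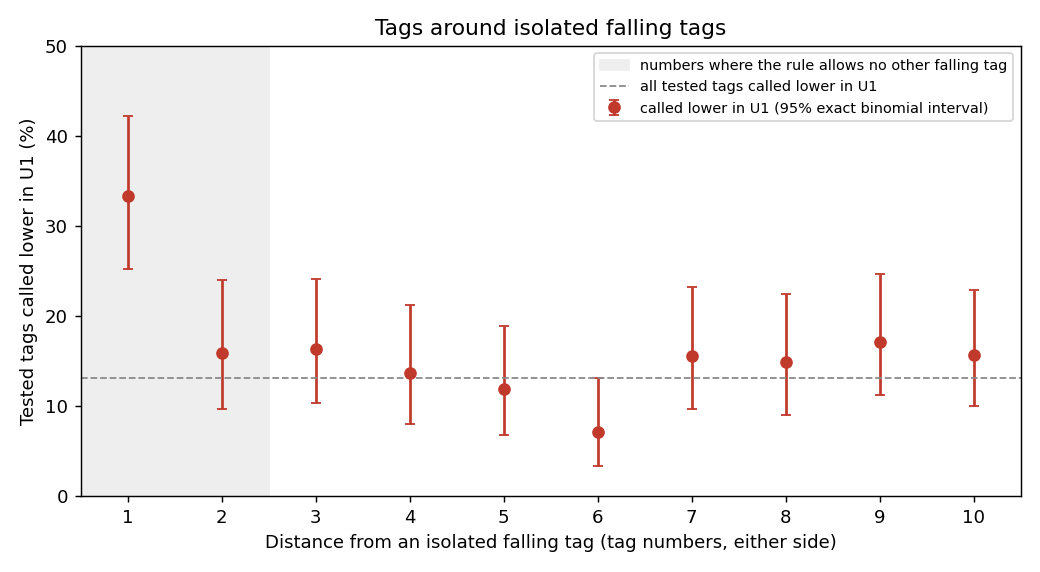
Percent of tested tags called lower in U1 (edgeR adjusted p under 0.05) at 1 to 10 tag numbers from an isolated falling tag, with 95% exact binomial intervals. The dashed line marks the 13.1% of all tested tags, and the point at 1 number (33.3%) lies above it with its whole interval.

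Seen member by member, 38 had an adjacent tag called lower, 11 had one called higher and 4 of these had both. In 42 members no adjacent tag was called, and in 29 no tag within 2 numbers was called in either direction. An adjacent tag was too weakly read to be tested, and so could not be called, at 36 members, on both sides at 9 of them. Members bordering a tag without a read in any library numbered 7. Such counts were not made around all tags, so no general share stands beside them. Another falling tag lay 3 to 5 numbers away from 8 members. The median distance to the nearest falling tag was 29 numbers, and 14 members had none within 100 numbers.

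In 6 members a neighbour within 2 numbers went the other way. A tag was counted here when its U1 mean was at least 10 CPM and at least 2 times the wild-type mean without overlap of libraries, which 187 of 11488 tags (1.63%) met outside the stretch left out by the rule. Within 2 numbers of a member 5 of 343 tags (1.46%) met it, a share near that of all tags. All 5 were adjacent to a member, where they made up 2.87% of 174 tags. At 2 numbers 1 of 173 tags (0.578%) met it, and that tag was also adjacent to another member. The difference from all tags was not tested. The best-read case joined the member of rank 14 by wild-type level, with 91.1, 71.5 and 87.6 CPM in U1 against 224.7, 205.6 and 170.2 CPM in wild type, to the tag just before it. That neighbour had 127.7, 109.3 and 115.9 CPM in U1, against 43.2, 37.7 and 31.6 CPM in wild type, so it stood at 3.14 times its wild-type mean next to a member at 0.417 of its own. In another case a single raised tag, at 20.1 ± 3.81 CPM in U1 and 4.05 ± 0.375 CPM in wild type (SD, n = 3 each), lay between a pair of members. The nearer of that pair was the member with the fourth lowest ratio, and the other, 2 numbers on, had 9.49 ± 1.22 CPM in U1 and 23.5 ± 4.43 CPM in wild type (SD, n = 3 each). The remaining 3 raised neighbours were at 2.03, 2.10 and 2.83 times their wild-type means.

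Members occurred throughout the numbering. Each stretch of 1000 tag numbers up to 11000 held 4 to 11 members, or 0.503% to 2.61% of its tags at 10 CPM or more in wild type. The highest of these shares was in numbers 10001 to 11000, with 11 members and 16 clustered tags among 422 such tags. Numbers 1001 to 2000 and 6001 to 7000 held 6 and 7 members without a clustered tag. The short stretch from 11001 to 11472 had 3 members among 71 tags at 10 CPM or more. The 16 tags of a separate block at the end of the numbering had none, but only 1 of them reached 10 CPM in wild type.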

How the data were processed

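The authors deposited raw counts per locus tag for each library: whole numbers without normalization. Reads were trimmed with Trimmomatic 0.32 and aligned with BWA 0.7.12, per the submitters' processing notes, an aligner without spliced alignment, so exon-junction reads may be missing from the counts. Counter, build, annotation and strand handling: not given in the sources used here. Members and the comparisons were chosen with earlier results of these data known. CPM for the members used library totals, as their rule states. Strains were compared over all tags in R 4.3.3 with edgeR 4.0.16: filterByExpr (8790 tags, 99.86% to 99.88% of counts), TMM factors, robust quasi-likelihood fit on strain, two-sided, Benjamini-Hochberg over all tested tags. The fit was tested on simulated counts with known changes, and the rule on a small made-up table with a known answer. The tags described singly are the 10 members of lowest ratio, the 10 of highest wild-type level, and the 3 nearest to each limit on either side; opposite neighbours and tags adjacent to members were added after their values were seen. Libraries of a strain differed by more than sampling noise (chi-square over degrees of freedom 3.76 to 7.46 in U1 and 2.15 to 3.25 in wild type). DESeq2 1.42.0 and the settings named in the closing section served as alternatives.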

Additional observations from a re-analysis of the deposited data

How the results depend on the processing

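The number of isolated tags followed the limits of the rule: 41 at a largest ratio of 0.4 and 156 at 0.6, beside 87 at 0.5. Of the 87, 66 remained isolated at 0.6. Under the other settings of the rule it ran from 69 (floor of 20 CPM, 64 of the 87 kept) to 109 (TMM-scaled library sizes, 81 kept). Leaving out 1 library gave 85 to 100 isolated tags, with 77 to 83 of the 87 kept. The median log2 ratio of the 87 was -1.33 with TMM-scaled library sizes and -1.33 with DESeq2 size factors. With libraries left out, or with the tags chosen on 4 libraries and read in the 2 others, it ran from -1.37 to -0.96. All 87 members were called lower in each of the 11 refits, beside 9.84% to 13.0% of all tested tags. They were selected on the same contrast, so nothing is read from this count. Leaving out 1 library called 878 to 1068 of all tested tags lower and 741 to 1029 higher. With library totals alone 899 tags were lower and 1385 higher, and 30.2% of adjacent tested tags were called lower beside 10.2% of all. The adjacent share, an alternative set added after seeing the data, ran from 26.9% (without wild-type replicate 1) to 35.6% over its refits, and the share at 3 to 5 numbers was at most 14.0%, its value with all settings as reported. With the replicate block 1118 tags were lower and 973 higher, and 34.9% of adjacent tags were lower. Same-numbered libraries did not deviate together (r = -0.035, -0.008 and -0.076), so the numbers were not taken as pairs. Depth limits the members under 10 reads in a U1 library.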
